A study of Mus musculus with 9 samples.

Results

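The *Hoxd* cluster was taken as mm9 chr2:74496367-74613200, from 10 kb before *Hoxd13* to 10 kb after *Hoxd1*, and its methylation was followed in mouse embryonic stem cells (ESCs) of the wild type (WT) and in ESCs without *Dnmt3a* or *Dnmt3b*. Its 9 genes were listed by name (*Hoxd13*, *Hoxd12*, *Hoxd11*, *Hoxd10*, *Hoxd9*, *Hoxd8*, *Hoxd3*, *Hoxd4* and *Hoxd1*, in the order of their starts on the chromosome), a rule of name and position that uses no methylation value. The locus is 116834 bp long and holds 3067 CpGs in the reference, of which 2903 had at least 3 reads in each genotype and were used, of 13328402 such CpGs in the part of the genome that the 3 tables share. All 9 genes were measured, among 14081 protein-coding genes with a measured transcription start site (TSS). The 9 genes lie on the plus strand. The posterior ones are *Hoxd13* (ENSMUSG00000001819.4) at chr2:74506367-74509656, *Hoxd12* (ENSMUSG00000001823.4) at chr2:74512986-74515763, *Hoxd11* (ENSMUSG00000042499.10) at chr2:74517449-74525798, *Hoxd10* (ENSMUSG00000050368.3) at chr2:74529147-74533163 and *Hoxd9* (ENSMUSG00000043342.8) at chr2:74535737-74538265. The anterior ones are *Hoxd8* (ENSMUSG00000027102.4) at chr2:74542672-74545990, *Hoxd3* (ENSMUSG00000079277.2) at chr2:74549986-74586331, *Hoxd4* (ENSMUSG00000042464.6) at chr2:74560035-74567217 inside *Hoxd3*, and *Hoxd1* (ENSMUSG00000042448.3) at chr2:74601037-74603200.

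Hox genes encode homeodomain transcription factors that give cells along the head-to-tail axis and in the limb their positional identity. The genes of the *Hoxd* cluster are switched on one after another during development, the *Hoxd1* side early and in anterior tissue, the *Hoxd13* side late and in posterior tissue, digits and genitalia. In undifferentiated ESCs the cluster is known to be held silent by Polycomb proteins, and many of its genes start in CpG islands. DNMT3A and DNMT3B are the enzymes that place methyl groups on previously unmethylated cytosines.

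The cells were J1 ESCs of strain 129S4/SvJae, grown with serum and LIF on gelatin, with the genotypes wild type, Dnmt3a-/- and Dnmt3b-/-. Whole genome bisulfite sequencing (WGBS) was done on 3 libraries of each genotype, labelled as biological replicates and 9 in total. The tables pool the 3 libraries, so that each genotype is 1 pooled value without replicate error, and no difference below could be set against the spread between libraries. Whether a KO line is 1 clone is not given in the sources used here, and a deleted gene and any other difference between the lines cannot be told apart. Bisulfite also leaves 5-hydroxymethylcytosine unconverted, so that the level of a CpG is the share of both marks.

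As a check of the genotypes, 12 consecutive CpGs of *Dnmt3a* (chr12:3902401-3902802) had 0 reads in the *Dnmt3a* KO, against a mean of 31.4 in WT. Likewise 30 consecutive CpGs of *Dnmt3b* (chr2:153502553-153504282) had 0 reads in the *Dnmt3b* KO, against 31.5 in WT. The deleted stretches were found in the tables labelled with those genotypes. In the *Hoxd* locus the mean depth per CpG was 19.5 reads in WT, 17.5 in the *Dnmt3a* KO and 19.5 in the *Dnmt3b* KO.

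The *Hoxd* locus was low in methylation in WT ESCs and lower in both KOs. The mean over its CpGs was 31.7% in WT, 10.3% in the *Dnmt3a* KO and 24.8% in the *Dnmt3b* KO, so that 32.7% of the WT level was left without *Dnmt3a* and 78.4% without *Dnmt3b*. Over the whole shared part of the genome the means were 82.4%, 50.3% and 75.5%, or 61.0% and 91.6% of WT. In each KO the locus thus kept a smaller share of its WT level than this shared part. Counted over reads, the KO minus WT difference in methylated share was -26.1 percentage points without *Dnmt3a* (95% Newcombe interval -26.6 to -25.6, from Wilson intervals) and -9.74 without *Dnmt3b* (-10.3 to -9.19). These and all later intervals of read shares cover counting error only, since the reads carry no molecular identifiers and the libraries are merged. They are too narrow even for that, since a read was counted at every CpG it covers.

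The 100 kb on the *Hoxd13* side of the locus had 64.5% in WT, 34.7% in the *Dnmt3a* KO and 57.3% in the *Dnmt3b* KO, or 53.7% and 88.8% of WT. The 100 kb on the *Hoxd1* side had 80.3%, 46.8% and 74.3%, or 58.3% and 92.6% of WT. Both neighbours were above the locus in level and in the share left in each KO. Single CpGs showed the same shift: 46.8% of the CpGs of the locus were under 10% in WT, 72.3% in the *Dnmt3a* KO and 54.7% in the *Dnmt3b* KO. Over all CpGs of the shared part these shares were 7.86%, 14.3% and 9.15%. At the other end, 547 CpGs of WT (18.8%) were at 80% or above, 34 (1.17%) in the *Dnmt3a* KO and 364 (12.5%) in the *Dnmt3b* KO. Over all CpGs of the shared part the shares at 80% or above were 77.1%, 16.9% and 63.1%, so that both KOs had fewer such CpGs there too.

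**Figure D1:**
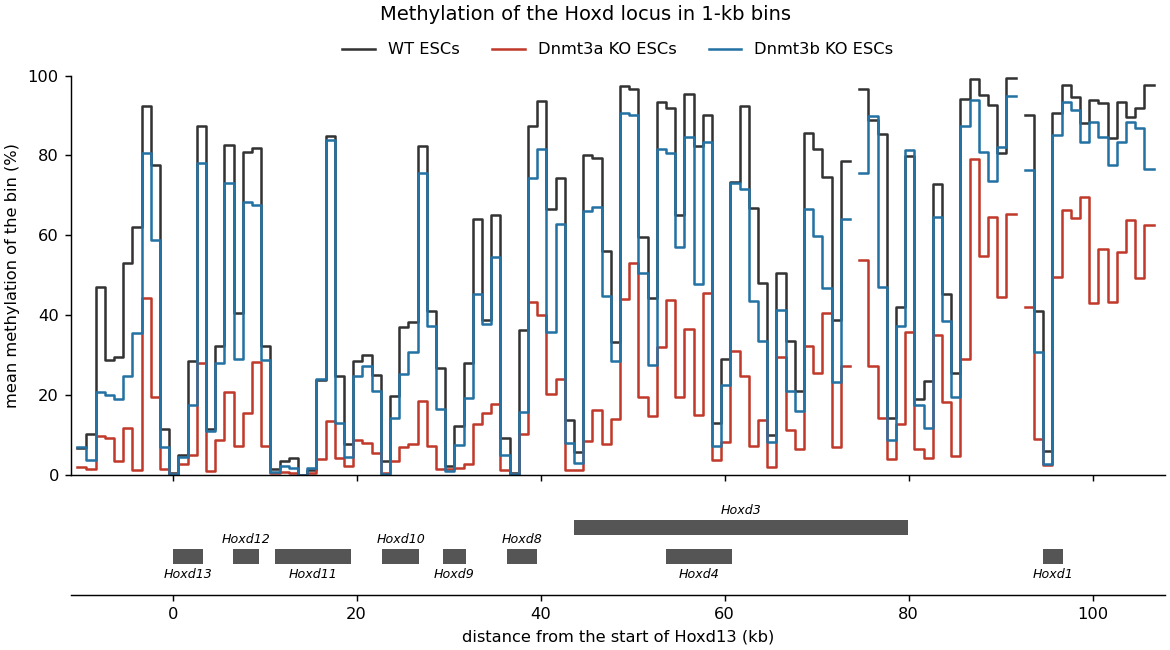
Mean methylation (%) of 1-kb bins with at least 3 measured CpGs, by distance from the start of *Hoxd13* in kb, for WT (dark), *Dnmt3a* KO (red) and *Dnmt3b* KO ESCs (blue), with the 9 genes as bars below. Troughs, at the starts of 7 of the 9 genes and not of *Hoxd12* and *Hoxd4*, alternate with peaks over 80% in WT, and the *Dnmt3a* KO line lies below WT in 114 of 115 bins. Over the whole shared part, 4893 of 1439544 bins were higher than WT in the *Dnmt3a* KO.

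Around the TSS of the main transcript (± 1 kb) 7 of the 9 genes were under 20% in WT. Both KOs were below WT at 9 of 9 genes, as were 98.6% of all protein-coding TSSs in the *Dnmt3a* KO and 94.7% in the *Dnmt3b* KO. A difference of more than 20 percentage points was found at 2 of 9 TSSs in the *Dnmt3a* KO, where 40.9% of all protein-coding TSSs passed this limit, and at 0 of 9 in the *Dnmt3b* KO, where 2.51% passed. Most *Hoxd* TSSs could not have passed it, since their WT level was itself under 20%. This was not particular to *Hoxd*: the WT median over all protein-coding TSSs was 17.8%, so that most of those could not have passed either. Counted over reads, the interval of the difference lay under 0 at 9 of 9 TSSs in the *Dnmt3a* KO and at 8 of 9 in the *Dnmt3b* KO, the exception being *Hoxd13*. These intervals were not computed for all protein-coding TSSs, so that the counts cannot be set against a share over all of them. With at least 10 reads per CpG *Hoxd9* also passed the limit in the *Dnmt3a* KO, which made 3 of 9.

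The posterior genes *Hoxd13* to *Hoxd9* shape digits, forearm and hindgut. *Hoxd13*, the last gene of the cluster to be expressed and the one altered in synpolydactyly, had 2.1% in WT, 0.493% in the *Dnmt3a* KO and 1.84% in the *Dnmt3b* KO over 143 CpGs. *Hoxd11*, a gene of forearm and kidney patterning, had 0.5%, 0.283% and 0.362% over 163 CpGs and was the lowest of the 9 in every genotype. Both TSSs were close to free of methylation already in WT. *Hoxd10*, active in the lumbar spinal cord, had 11.3%, 2.28% and 6.49%. *Hoxd9* had 13.7%, 1.23% and 8.49%, which left 8.97% of the WT level in the *Dnmt3a* KO, the smallest share among the 9 TSSs. Within this window, chr2:74534968-74535276 before the TSS had 71.1% in WT and 2.33% in the *Dnmt3a* KO. *Hoxd9* exon 1 had 2.33% and 1.38%, which left 59.3% of WT.

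*Hoxd12* stood apart from its posterior neighbours, with 54.4% in WT, 11.5% in the *Dnmt3a* KO and 43.5% in the *Dnmt3b* KO over 84 CpGs. Over reads the KO minus WT difference was -43.8 percentage points without *Dnmt3a* (-46.7 to -40.8) and -9.76 without *Dnmt3b* (-13.2 to -6.24). A methylated window thus lay between the nearly unmethylated ones of *Hoxd13* and *Hoxd11*.

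On the anterior side, *Hoxd8* had 3.40% in WT, 0.571% in the *Dnmt3a* KO and 1.79% in the *Dnmt3b* KO. *Hoxd3*, a gene of the neck vertebrae, had 8.30%, 1.16% and 4.55% at the start of its longest transcript. Its 5 other annotated starts were higher, from 25.0% to 53.7% in WT, and 3 of them were lower by more than 20 percentage points in the *Dnmt3a* KO, so that the level and the count of TSSs past the limit depend on the transcript. *Hoxd1*, which acts in sensory neurons, had 15.8%, 4.25% and 10.8%, or 24.5%, 4.65% and 15.4% as shares of reads. At these starts all 3 genes were low in WT and lower in both KOs. For *Hoxd1* the methylation lay outside the TSS itself, since ± 500 bp had 1.18% in WT, 0.142% in the *Dnmt3a* KO and 0.593% in the *Dnmt3b* KO.

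*Hoxd4*, which patterns the hindbrain and the upper neck, was the most methylated of the 9 TSSs. Its longest transcript starts at chr2:74560035 inside an intron of *Hoxd3*, and this window had 92.8% in WT, 38.7% in the *Dnmt3a* KO and 81.8% in the *Dnmt3b* KO over 24 CpGs. Over reads the differences were -51.5 percentage points (-56.2 to -46.4) and -9.43 (-13.4 to -5.60). A second annotated *Hoxd4* start at chr2:74565131, had 30.8%, 12.9% and 24.7% over 71 CpGs, so that the level given for *Hoxd4* depends on the transcript.

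The promoters of *Hoxd4* and *Hoxd11* are printed because these genes had the highest and the lowest TSS level in WT. Each is 250 bases of the mm9 plus strand, the strand of both genes, read 5′ to 3′ with every CpG in capitals. The *Hoxd4* stretch is chr2:74559785-74560034, directly before its TSS, and the *Hoxd11* stretch is chr2:74519806-74520055, directly before the start of its transcript Hoxd11-001, a different start from the one ranked above, with 0.955% in WT, 0.234% in the *Dnmt3a* KO and 0.501% in the *Dnmt3b* KO.
Hoxd4 promoter: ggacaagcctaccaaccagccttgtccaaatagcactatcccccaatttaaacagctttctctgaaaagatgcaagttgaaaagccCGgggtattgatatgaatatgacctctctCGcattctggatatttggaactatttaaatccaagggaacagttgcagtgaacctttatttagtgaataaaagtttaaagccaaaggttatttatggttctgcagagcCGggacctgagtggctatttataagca
Hoxd11 promoter: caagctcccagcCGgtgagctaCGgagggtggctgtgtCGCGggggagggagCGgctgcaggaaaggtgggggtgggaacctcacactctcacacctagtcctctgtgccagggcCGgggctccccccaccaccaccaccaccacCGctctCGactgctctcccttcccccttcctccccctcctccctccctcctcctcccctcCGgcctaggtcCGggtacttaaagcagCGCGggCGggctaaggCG

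The *Hoxd4* stretch has 3 CpGs and the *Hoxd11* stretch 14. At the 3 *Hoxd4* CpGs the mean was 94.9% in WT, 55.3% in the *Dnmt3a* KO and 95.8% in the *Dnmt3b* KO. From the first to the last base printed, WT had 94.7%, 90.0% and 100% at them, *Dnmt3a* KO 57.5%, 41.7% and 66.7%, and *Dnmt3b* KO 92.9%, 94.4% and 100%. Over reads the difference was -39.2 percentage points in the *Dnmt3a* KO (-50.2 to -27.0) and 1.11 in the *Dnmt3b* KO (-9.74 to 8.63), where 43 of 45 reads were methylated. The *Dnmt3b* KO interval holds, near its lower end, the -9.43 percentage points seen over the reads of the whole window. At 13 measured CpGs of the *Hoxd11* stretch 0 of 87 reads were methylated in WT, 0 of 122 in the *Dnmt3a* KO and 0 of 171 in the *Dnmt3b* KO. These counts of 0 would allow shares of up to 3.45%, 2.46% and 1.75% if each count were a separate read. A read was counted at every CpG it covers, so that these limits are too low.

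**Figure D2:**
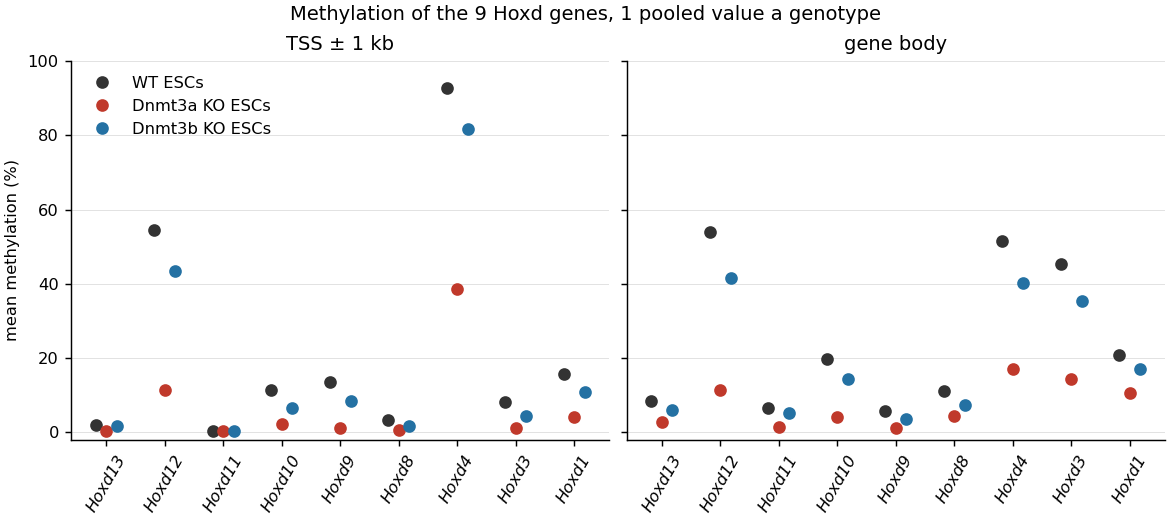
Mean methylation (%) of the 9 *Hoxd* genes at TSS ± 1 kb (left) and over the gene body (right), listed from *Hoxd13* to *Hoxd1*, with 1 point for each pooled genotype and no error bars. *Hoxd12* and *Hoxd4* are the 2 TSSs that stand above the others in WT, at 54.4% and 92.8%. Every *Dnmt3a* KO point lies below its WT point, as do 98.6% of all protein-coding TSSs and 99.8% of all protein-coding gene bodies.

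Within the genes, exon 1 was less methylated than the last exon at 8 of 9 genes in WT, the exception being *Hoxd4*. In the *Dnmt3a* KO this held at 7 of 9 genes, with *Hoxd9* also an exception, and in the *Dnmt3b* KO at 8 of 9. Exons were not compared for all protein-coding genes, so that these counts cannot be set against a share over all of them. *Hoxd1* exon 1 had 3.70% in WT, 0.427% in the *Dnmt3a* KO and 1.36% in the *Dnmt3b* KO, and its exon 2, which holds the homeobox, had 91.2%, 51.1% and 85.4%. *Hoxd8* exon 1 had 0.550%, 0.254% and 0.207%, and its exon 2 had 76%, 33.1% and 53.6%. The last exons of these genes thus carried the methylation that could be lost. The last exon of *Hoxd13* had 35.7%, 10.7% and 26.4%, and that of *Hoxd11* had 30.6%, 4.97% and 25.5%. At *Hoxd9* even the last exon was low, with 17.0%, 0.989% and 12.2%.

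Over whole gene bodies, a difference of more than 20 percentage points was found at 3 of 9 genes in the *Dnmt3a* KO, where 89.2% of all protein-coding gene bodies passed, and at 0 of 9 in the *Dnmt3b* KO, where 1.14% passed. Against 89.2% the 3 of 9 is a low share, but 5 of the 9 bodies were under 20% in WT. With at least 10 reads per CpG the body of *Hoxd8* also passed, and as a share of reads that of *Hoxd1*, which made 4 of 9 in each case. The 3 were *Hoxd12* with 54.0% in WT, 11.6% in the *Dnmt3a* KO and 41.7% in the *Dnmt3b* KO, *Hoxd4* with 51.5%, 17.1% and 40.2%, and *Hoxd3* with 45.2%, 14.4% and 35.3%. As a share of reads the *Hoxd4* body had 59.0%, 16.9% and 39.8%, with a *Dnmt3b* KO minus WT difference of -19.3 percentage points, against -11.3 by the mean over CpGs. The body of *Hoxd3* encloses that of *Hoxd4*, so that these 2 genes share CpGs. Of its WT level a gene body kept from 20.6% (*Hoxd10*) to 51.5% (*Hoxd1*) in the *Dnmt3a* KO and from 63.6% (*Hoxd9*) to 82.2% (*Hoxd1*) in the *Dnmt3b* KO, with medians of 31.9% and 77.2%. This order depended on the measure, since as a share of reads *Hoxd1* kept 58.2% in the *Dnmt3b* KO, the lowest of the 9, and *Hoxd12* 89.8%.

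The 8 other genes annotated in the locus were measured in the same way. *Evx2*, a homeobox gene beside *Hoxd13*, had 18.1% at its TSS in WT, 2.82% in the *Dnmt3a* KO and 7.21% in the *Dnmt3b* KO. *Mir10b*, a microRNA gene between *Hoxd4* exons, had 84.8%, 27.9% and 60.1% around its start, the one start among these 8 genes that was lower by more than 20 percentage points in both KOs. Its window overlaps the *Hoxd4* exons described below, so that it is no separate finding. The start of *Gm14396* between *Hoxd10* and *Hoxd9* had 69.6%, 18.9% and 66.8%, that of *1700109F18Rik* 47.1%, 12.9% and 40.3%, and that of *Gm14426* 80.7%, 32.9% and 72.0%. Starts of *Gm20440* (3.68%, 0.889% and 3.79%), *6720416L17Rik* (16.1%, 4.60% and 10.8%) and *Gm14424* (29.2%, 8.77% and 23.2%) were lower in WT.

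Outside the bodies of the 9 genes, both 10-kb flanks included, the level was 40.1% in WT, 13.9% in the *Dnmt3a* KO and 32.0% in the *Dnmt3b* KO, against 27.2%, 8.45% and 21.0% within gene bodies. In 1-kb bins, 81 of 115 bins (70.4%) were lower by more than 20 percentage points in the *Dnmt3a* KO, where 86.0% of all bins passed, and 13 (11.3%) in the *Dnmt3b* KO, where 7.26% passed. Among the 90 bins over 20% in WT the counts were 81 (90.0%) in the *Dnmt3a* KO against 87.1% of all such bins, and 13 (14.4%) in the *Dnmt3b* KO against 7.35%. The count of bins in the *Dnmt3a* KO was thus close to that of other bins with methylation to lose. What differed was the share left: over these 90 bins its median was 31.1% of WT in the *Dnmt3a* KO and 84.7% in the *Dnmt3b* KO, against 62.6% and 93.0% over all such bins.

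Bins of the same class of WT level were compared next. Over the 41 bins of more than 80% in WT, the median was 43.3% in the *Dnmt3a* KO and 81.5% in the *Dnmt3b* KO, against 58.1% and 85.9% over all bins of that class. With the number of CpGs also limited to 10 or more, the 14 such bins of the locus had medians of 32.2% and 73.8%, against 59.6% and 87.3%. In WT, however, these 14 bins had a median of 84.2% against 92.8%, so that they were not matched in WT level. The other 27 bins, with 3 to 9 CpGs, had 93.5% in WT, 49.4% in the *Dnmt3a* KO and 83.8% in the *Dnmt3b* KO, against 92.1%, 57.3% and 85.0%. For the *Dnmt3b* KO these 27 bins kept 92.0% of WT against 92.4%. Over the 18 bins of 50% to 80% in WT the median share left was 30.1% in the *Dnmt3a* KO and 81.7% in the *Dnmt3b* KO, against 57.7% and 91.5% over all such bins. Over the 31 bins of 20% to 50% it was 22.2% and 75.2%, against 30.7% and 74.2%. These 2 classes were not matched either. Their WT medians were 66.7% and 32.4%, against 73.2% and 39.0% over all such bins. Their median numbers of CpGs were 15.5 and 26, against 6 and 12. Within classes the share left in the *Dnmt3a* KO was thus below that of other bins by amounts that varied, while in the *Dnmt3b* KO it was below in some classes and not in others. In the *Hoxd* locus bins with more CpGs were less methylated in WT (Pearson r = -0.729 and Spearman rho = -0.785 over 115 bins of the same pooled libraries, given as a description).

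The share left in the *Dnmt3a* KO was smaller on the *Hoxd13* side than on the *Hoxd1* side. From *Hoxd13* to the base before *Hoxd8* the mean was 21.3% in WT, 4.67% in the *Dnmt3a* KO and 16.8% in the *Dnmt3b* KO, or 21.9% and 78.7% of WT. From *Hoxd8* to *Hoxd1* it was 38.5%, 13.6% and 30.3%, or 35.3% and 78.8% of WT, and over the last 10 kb after *Hoxd1* it was 92.3%, 57.0% and 85.9%, or 61.8% and 93.1% of WT. The 10 kb before *Hoxd13* had 24.3%, 5.38% and 14.5%, or 22.2% and 59.9% of WT. Between the 2 gene segments the share left thus differed in the *Dnmt3a* KO and was nearly equal in the *Dnmt3b* KO, while the flanks differed in both. Segment means do not show whether the change is stepwise or gradual. Over the 90 bins the share left in the *Dnmt3a* KO went with position (r = 0.637, rho = 0.620) and, in the other direction, with the number of CpGs (r = -0.453, rho = -0.446), and the part of each was not tested. In the *Dnmt3b* KO the same values were r = 0.318 and rho = 0.324 with position, and r = -0.330 and rho = -0.352 with the number of CpGs. In bins over 80% in WT, where the median number of CpGs was 9 on both sides, the 6 on the *Hoxd13* side kept a median of 23.8% of WT and the 24 on the *Hoxd1* side 46.0%. Their WT medians differed, with 82.5% and 92.0%.

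**Figure D3:**
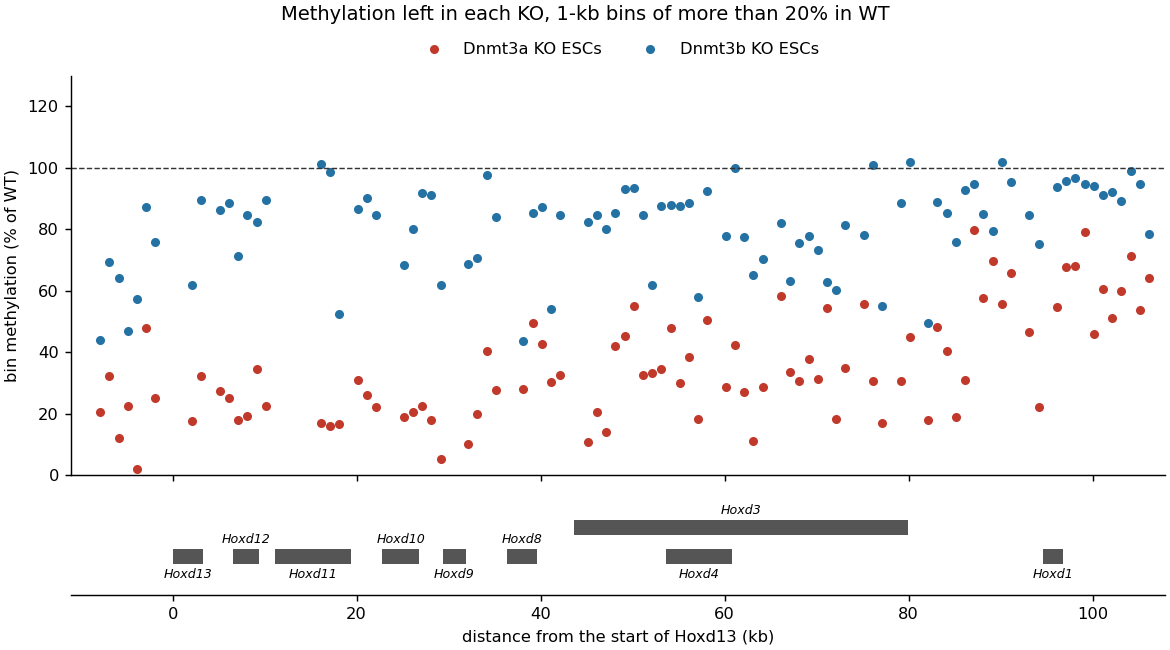
Methylation of each 1-kb bin as a percentage of its WT level, for the 90 bins of more than 20% in WT, by distance from the start of *Hoxd13* in kb, in the *Dnmt3a* KO (red) and *Dnmt3b* KO ESCs (blue), with the dashed line at the WT level. Medians are 31.1% in the *Dnmt3a* KO and 84.7% in the *Dnmt3b* KO, and the *Dnmt3a* KO points are highest after *Hoxd1*.

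The bin of largest difference in the *Dnmt3a* KO was chr2:74551000-74551999 in an intron of *Hoxd3*, with 80.2% in WT, 8.58% in the *Dnmt3a* KO and 66.1% in the *Dnmt3b* KO over 18 CpGs. It is shown as the bin of largest difference. Its central 300 bases, chr2:74551350-74551649 of the plus strand, overlap exon 2 of *1700109F18Rik*, a long noncoding RNA of the other strand, and have 6 CpGs (in capitals), at which the means were 83.0%, 9.35% and 68.0% with depths of 42.5, 27.3 and 31 reads.
Hoxd3 intron: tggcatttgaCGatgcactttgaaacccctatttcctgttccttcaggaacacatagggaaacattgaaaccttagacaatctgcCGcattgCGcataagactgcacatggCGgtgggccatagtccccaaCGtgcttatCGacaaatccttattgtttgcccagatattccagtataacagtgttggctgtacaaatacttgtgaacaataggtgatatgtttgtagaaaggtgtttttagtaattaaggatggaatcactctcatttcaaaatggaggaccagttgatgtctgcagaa

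At 5 of these 6 CpGs *Dnmt3a* KO had 8.70% or less, while *Dnmt3b* KO ranged from 32.4% to 96.9%. In the *Dnmt3b* KO the largest difference was at chr2:74583000-74583999 in *Hoxd3*, with 85.5% in WT, 14.4% in the *Dnmt3a* KO and 47.0% in the *Dnmt3b* KO over 5 CpGs only. The bin of highest level in WT was chr2:74597000-74597999 between *Hoxd3* and *Hoxd1*, with 99.5%, 65.3% and 94.8%. The lowest, chr2:74520000-74520999 over *Hoxd11* exon 1, had 0.0825%, 0.101% and 0.104% over 101 CpGs.

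For single CpGs, a change was called where the 95% credible interval of the difference between the pooled reads lay beyond 0.2. In the *Dnmt3a* KO 519 of 2927 CpGs of the locus (17.7%) were hypomethylated, against 25.6% of all CpGs tested, and 0 were hypermethylated, against 0.00703%. In the *Dnmt3b* KO 71 of 2969 (2.39%) were hypomethylated, against 2.14%, and 3 were hypermethylated, against 0.0690%. Both shares of hypomethylated CpGs were thus below or near that of all CpGs tested, in a locus where 46.8% of CpGs were under 10% in WT. Calls also depend on depth. The mean depth in WT, *Dnmt3a* KO and *Dnmt3b* KO was 19.5, 17.5 and 19.5 reads in the locus, against 36.2, 33.4 and 32.7 over the shared part. These shares, and the densities of regions built from the calls below, were thus compared at unlike depth. By gene body the share hypomethylated in the *Dnmt3a* KO was highest in *Hoxd4* (29.4%), *Hoxd3* (28.0%) and *Hoxd12* (27.7%). It was 11.5% in *Hoxd10*, 9.09% in *Hoxd1*, 5.05% in *Hoxd13*, 4.08% in *Hoxd8* and 3.30% in *Hoxd11*, and 0 of 150 CpGs were called in the body of *Hoxd9*. In the TSS windows of *Hoxd9* and *Hoxd1*, 15 of 124 and 16 of 135 CpGs were called.

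Runs of at least 4 called CpGs, at most 300 bp apart from one to the next, formed differentially methylated regions (DMRs). There were 32 in the *Dnmt3a* KO, all hypomethylated, from 28 to 908 bp long with a median of 223.5 bp. This is 10.9 DMRs per 1000 CpGs tested, near the 10.6 of the whole shared part. They had 66.3% to 96.9% in WT, 2.33% to 42.6% in the *Dnmt3a* KO and 17.0% to 84.1% in the *Dnmt3b* KO. *Hoxd3* held 16 of them, 5 of which were in *Hoxd4*, *Hoxd12* held 2 and *Hoxd11* 1, and the other 13 lay outside the 9 genes. No DMR lay in the bodies of *Hoxd13*, *Hoxd10*, *Hoxd9*, *Hoxd8* or *Hoxd1*. The DMR chr2:74534968-74535276 lay in the TSS window of *Hoxd9*, before the gene. Those at chr2:74600026-74600245 and chr2:74600255-74600402 overlapped the TSS window of *Hoxd1*. The longest, chr2:74551125-74552032 in *Hoxd3*, had 78.9%, 7.79% and 70.3% over 20 CpGs.

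The DMR of largest difference, chr2:74514022-74514220 in *Hoxd12* exon 2, had 87.8% in WT, 2.94% in the *Dnmt3a* KO and 68.9% in the *Dnmt3b* KO. In the *Dnmt3b* KO 2 DMRs were called, both overlapping DMRs of *Dnmt3a* KO, or 0.674 per 1000 CpGs tested against 0.0925 in the whole shared part, a share that rests on these 2 regions. One is chr2:74513855-74513904, 50 bp across the start of *Hoxd12* exon 2, with 75.3%, 15.5% and 13.6%. The other is chr2:74563522-74563573, 52 bp in exon 4 of *Hoxd4*, which is also an exon of a *Hoxd3* transcript, with 76.7%, 10.5% and 6.98%. At both of these short stretches both KOs were far below WT, while their order rested on the first CpG of each, where the *Dnmt3a* KO had 45.5% and 35% and the *Dnmt3b* KO 0% and 4.35%.

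The end of the *Hoxd12* intron and the coding part of exon 2, which encodes the homeodomain, are printed because DMRs of both KOs meet there. The 300 bases are chr2:74513807-74514106 of the plus strand, 5′ to 3′, with the 18 CpGs in capitals.
Hoxd12 intron and exon 2: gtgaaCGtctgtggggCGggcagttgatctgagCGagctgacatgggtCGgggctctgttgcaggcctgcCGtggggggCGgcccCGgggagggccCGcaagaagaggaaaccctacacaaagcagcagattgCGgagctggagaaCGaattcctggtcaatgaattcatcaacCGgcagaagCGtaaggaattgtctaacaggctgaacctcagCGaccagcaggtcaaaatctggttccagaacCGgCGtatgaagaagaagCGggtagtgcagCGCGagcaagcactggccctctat

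Over these 18 CpGs the mean was 66.1% in WT, 7.18% in the *Dnmt3a* KO and 39.0% in the *Dnmt3b* KO, with mean depths of 19.8, 12.6 and 27.2 reads. In the *Dnmt3a* KO the highest of the 18 was 45.5%, at base 49. *Dnmt3b* KO changed within the stretch: at bases 49, 71, 80, 86 and 97, the 5 CpGs of its DMR, it had 0%, 13.6%, 4.76%, 21.1% and 28.6%, where WT had 61.5%, 73.9%, 66.7%, 84.2% and 90.0%. Further on, at bases 216 and 247, it had 52.9% and 38.5%, where WT had 73.7% and 93.3%. At bases 250, 265, 277 and 279 it had 93.0%, 95.6%, 90.2% and 78.4%, where WT had 70.6%, 92.3%, 100% and 100% and *Dnmt3a* KO had 0% at all 4. *Dnmt3b* KO thus went from 0% to 28.6% at its DMR to 78.4% to 95.6% at these 4 CpGs within this stretch, while *Dnmt3a* KO stayed at 0% over its last 6 CpGs.

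**Figure D4:**
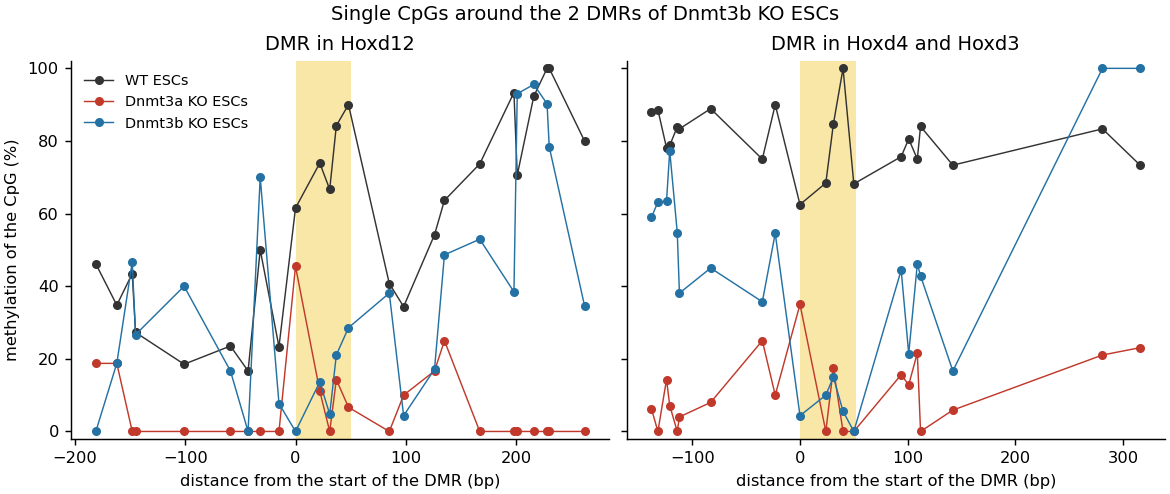
Methylation (%) of each CpG around the 2 DMRs of *Dnmt3b* KO ESCs (shaded), by distance from the start of the DMR in bp, in *Hoxd12* (left) and in the exon shared by *Hoxd4* and *Hoxd3* (right). Inside the DMRs both KOs lie below WT, with means of 13.6% and 6.98% in the *Dnmt3b* KO, and in *Hoxd12* the *Dnmt3b* KO points rise again to the right of the shading, up to 95.6%.

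Under-methylated regions (UMRs) were stretches of at least 1 kb in which the running mean over 5 CpGs stayed under 10%, and canyons were UMRs of at least 3.5 kb. WT had 4 UMRs in the locus, 0 of them canyons, which covered 7455 bp (6.38%). *Dnmt3a* KO had 16, of which 2 were canyons, which covered 31167 bp (26.7%), and *Dnmt3b* KO had 7, of which 1 was a canyon, which covered 13065 bp (11.2%). Lengths depend on the rule, and with a hidden Markov model fitted to each genotype they were 17553, 62858 and 26535 bp, in the same order of genotypes. The WT count of canyons was 1 with this model and with a limit of 20%.

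The WT UMRs held the main TSSs of *Hoxd13*, *Hoxd11* and *Hoxd8*, 3 of the 9, and only main TSSs are counted here. In the *Dnmt3a* KO 7 of 9 TSSs lay in a UMR, now also those of *Hoxd10*, *Hoxd9*, *Hoxd3* and *Hoxd1*, and in the *Dnmt3b* KO 5 of 9, now also those of *Hoxd3* and *Hoxd1*. Over all 14081 protein-coding TSSs, 29.96% lay in a UMR in WT, 50.9% in the *Dnmt3a* KO and 38.8% in the *Dnmt3b* KO. *Hoxd12* and *Hoxd4* were outside in every genotype by this rule. Membership depended on the rule, since with the model of each genotype *Hoxd3* and *Hoxd1* lay in a UMR already in WT, with a limit of 20% *Hoxd9* did, and by both of these rules *Hoxd12* lay in one in the *Dnmt3a* KO. Around *Hoxd11* WT had separate UMRs of 1652 and 2647 bp, which were joined in one canyon of 5812 bp in the *Dnmt3a* KO and of 4877 bp in the *Dnmt3b* KO. With a limit of 20% WT itself had one canyon there, of 5251 bp, against 4992 bp in the *Dnmt3b* KO, and with the model one of 6653 bp against 6851 bp. Around *Hoxd13* the UMR was 1650 bp long in WT, 3827 bp in the *Dnmt3a* KO and 1829 bp in the *Dnmt3b* KO, and around *Hoxd8* it was 1506, 2734 and 1519 bp. With the model the *Hoxd8* lengths were 3232, 3281 and 3371 bp, so that this difference was not seen there, and the *Hoxd13* lengths were 3430, 4420 and 3683 bp, a smaller difference. The remaining 9 UMRs of *Dnmt3a* KO held no main *Hoxd* TSS. That at chr2:74570771-74571784 held another annotated *Hoxd3* start, at chr2:74570971.

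**Figure D5:**
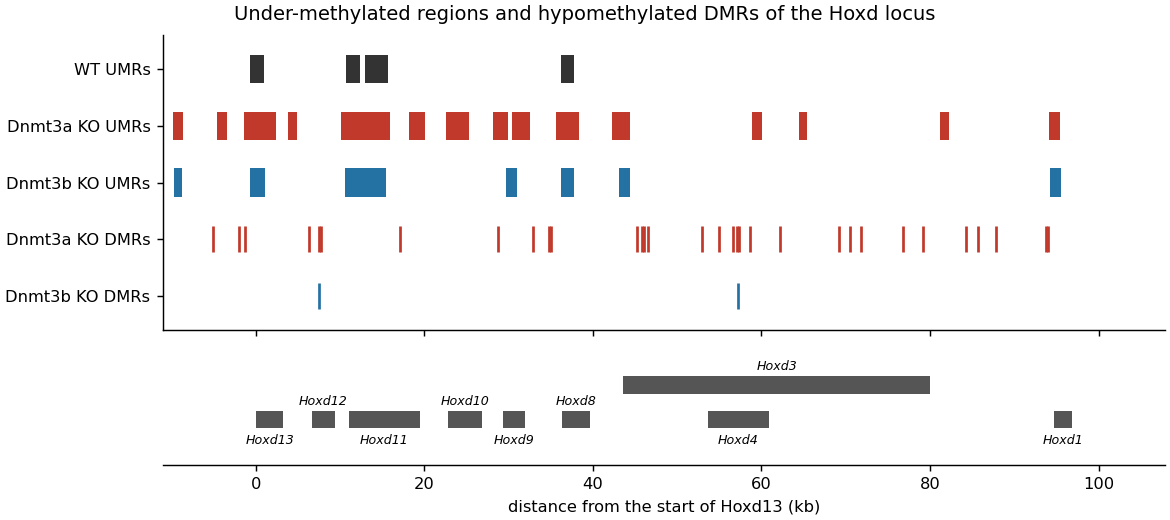
UMRs of each genotype (bars, to scale) and hypomethylated DMRs of each KO (ticks at their centres) by distance from the start of *Hoxd13* in kb, with the 9 genes below. UMRs cover 7455 bp in WT, 31167 bp in the *Dnmt3a* KO and 13065 bp in the *Dnmt3b* KO, and most lie between *Hoxd13* and *Hoxd8*.

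The other Hox clusters of the shared part were similar. The *Hoxb* locus had 40.7% in WT, 17.0% in the *Dnmt3a* KO and 33.2% in the *Dnmt3b* KO, or 41.8% and 81.6% of WT, and the *Hoxc* locus had 30.8%, 11.9% and 24.0%, or 38.6% and 78.0% of WT. The *Hoxd* locus kept the smallest share in the *Dnmt3a* KO, with 32.7%, and a share between the other two in the *Dnmt3b* KO, with 78.4%. Differences of more than 20 percentage points in the *Dnmt3a* KO were found at 3 of 10 *Hoxb* TSSs and 1 of 9 *Hoxc* TSSs, and in the *Dnmt3b* KO at 0 of 10 and 0 of 9. They were *Hoxb1*, *Hoxb3*, *Hoxb4* and *Hoxc4*, of which *Hoxb3* had 80.3%, 43.9% and 76%. The relatives of *Hoxd4* among them were *Hoxb4* with 79.5%, 29.8% and 68.4% and *Hoxc4* with 84.5%, 30.2% and 73.0%. Highly methylated windows at the start of the longest transcript were thus seen at the 3 group 4 genes measured and at *Hoxb3*, and *Hoxc4* was the single *Hoxc* gene above the limit. These windows had few CpGs, with 24 at *Hoxd4*, 26 at *Hoxb4*, 19 at *Hoxc4* and 22 at *Hoxb3*. Other starts of the *Hoxb* and *Hoxc* genes were not measured, so that this pattern may depend on the choice of transcript, as it did at *Hoxd4*.

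The cofactors *Meis1*, *Meis2*, *Pbx3* and *Pknox1*, whose proteins bind DNA together with Hox proteins, had TSS levels of 0.473% to 8.49% in WT, so that none of these 4 could pass the limit in either KO. Of the pluripotency genes, *Pou5f1*, *Sox2* and *Klf4* had 0.685%, 0.0594% and 0.153% in WT and stayed under 1% in both KOs. *Esrrb* had 94.1%, 33.3% and 85.4% at the start of its longest annotated transcript. The promoters of the first 3 genes were thus nearly free of methylation in every genotype, and RNA was not analysed here.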

How the data were processed

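WGBS reads of J1 ESCs were aligned by the authors to mm9 with BSMAP, checked for bias with BSeQC, and summarised per CpG with mCall of MOABS (versions not given in the sources used here). Deposited are 1 table a genotype, merged over 3 libraries, with the total and methylated read counts of each CpG and their ratio, a methylation fraction. The WT table used here ends on chr4, so that other chromosomes after it in file order were not analysed, and 1 incomplete row was left out. Levels are means of these ratios over CpGs with at least 3 reads in all 3 tables, written as percentages. Genes are from GENCODE vM1, whose build is mm9, and sequences from the mm9 genome. The main TSS is that of the longest protein-coding transcript. Single CpGs were called with a Beta posterior of the counts (95% credible interval beyond 0.2) and checked on simulated data. Regions were called lower at more than 20 percentage points, without a test, since each genotype is 1 pooled table. Both KO comparisons share the same WT reads. Members and gene lists were chosen with earlier results of these data known. One item of the cofactor list is not reported here. Named in the text are the 9 genes, and the extremes of bins, DMRs and UMRs. Alternatives were a minimum of 10 reads, shares of reads, thinning to equal depth, other windows and limits, Fisher's exact test and a hidden Markov model. Python 3.11.15, NumPy 2.4.6, SciPy 1.17.1, pandas 2.3.3 and numba 0.67.0 were used.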

Additional observations from a re-analysis of the deposited data

How the results depend on the processing

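No paired analysis was possible because only a table pooled over 3 replicates was given for every genotype, and leaving out each replicate was not possible for the same reason. Directions were largely kept: 122 of 126 gene values under alternatives were lower in the KO, and the 4 others differed from WT by less than 0.1 percentage points at *Hoxd11* or *Hoxd13*. The locus mean differed from WT by -25.4 in the *Dnmt3a* KO and -7.67 in the *Dnmt3b* KO with at least 10 reads (1817 CpGs), and by -26.1 and -9.74 as a share of reads, against -21.3 and -6.84 percentage points. With a limit of 10 percentage points, 46 bins were lower in the *Dnmt3b* KO, against 13. Fisher's exact test called 833 CpGs in the *Dnmt3a* KO, of which 518 were among the 519, and 99 in the *Dnmt3b* KO, of which 64 were among the 71. UMRs covered 13356 bp in WT, 52109 in the *Dnmt3a* KO and 21110 in the *Dnmt3b* KO with a limit of 20%. With a hidden Markov model of each genotype they covered 17553, 62858 and 26535 bp, and with that of WT for all 17553, 96291 and 23178 bp. The order of the genotypes was the same under these 3 rules. By the last one, however, the *Dnmt3a* KO had a single region of 102746 bp, which held the *Hoxd4* TSS with its 38.7% in this KO. The high state of the model had a mean ratio of 0.914 in WT, against 0.569 when fitted to the *Dnmt3a* KO. The 96291 bp thus do not measure stretches of low methylation alone. With at least 10 reads 3 TSSs (*Hoxd9* at -21.0, against -12.4) and 4 gene bodies were lower by more than 20 percentage points in the *Dnmt3a* KO, and as a share of reads also 4 bodies (*Hoxd1* at -22.9, against -10.1). *Hoxd8* depended on which CpGs were kept: its body with at least 10 reads had 47.2% in WT and 21.8% in the *Dnmt3a* KO over 29 CpGs, and its TSS difference was -8.78 percentage points, against -2.83, while thinning to equal depth gave -2.61. Mean depths of 8.65 to 22.3 reads per CpG at the TSSs in WT limit single CpGs more than windows.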

Other observations

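The base after the CpG was set beside the level, for CpGs of the *Hoxd* locus that WT had at 80% or above. In the *Dnmt3a* KO the methylated share of reads was 40.5% (95% Wilson interval 38.6 to 42.3) before A, 37.3% (35.5 to 39.2) before T, 34.7% (33.0 to 36.4) before G and 33.3% (31.5 to 35.1) before C. In the *Dnmt3b* KO it was 76.3% before A, 77.6% before T, 75.0% (73.6 to 76.4) before G and 80.5% (79.0 to 81.9) before C. In WT, where these CpGs were chosen by their level, it was 92.4%, 93.5%, 92.2% and 91.9% before A, T, G and C. In the *Dnmt3a* KO the intervals of all neighbours in this order overlap, while that of A does not overlap those of G and C, nor that of T that of C. Over chromosome 2 as a whole the order differed in the *Dnmt3b* KO, with 91.3% before A, 90.8% before T, 90.3% before C and 89.2% before G, while C was lowest in the *Dnmt3a* KO with 68.9%. These chromosome 2 shares are weighted by CpGs of very high depth, since WT had 72651060 reads at 536229 CpG strands before A and 9747586 at 455342 before C. The intervals cover counting error only and count a read at every CpG it covers, and this comparison was chosen without a replicate to test it.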
